A study of Rattus norvegicus with 12 samples.

Results

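miR-132 was followed across 12 samples of rat medial entorhinal cortex (MEC), as 1 of 375 miRNA assays on a TaqMan low density card. It was chosen by name, together with its partner miR-212, as an activity-regulated pair. Of the 2 names, miR-132 matched 1 assay, and miR-212 was not analysed here. All animals were Long Evans rats. Stellate samples (n = 5) held cells sorted as positive for DiO, a lipophilic tracer put into the dentate gyrus on postnatal day 2 and carried back along the axons, with the pups killed on day 4 or 5. Non-stellate samples (n = 5) held DiO negative cells sorted from MEC of the same age, so that they were defined by the lack of dye alone. Tissue samples (n = 2) were dissected MEC from day 23 that was neither injected, dissociated nor sorted. Its RNA was purified with another kit than that of the sorted cells, so age, sorting and RNA extraction cannot be told apart in any comparison with tissue. A description field of non-stellate 3 and 5 calls them labelled, against their title, source and fluorescence, and the comparisons and correlations are therefore also given without them.

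miR-132 and miR-212 are processed from one primary transcript, whose transcription is switched on in neurons by the factor CREB after synaptic activity or exposure to the growth factor BDNF. miR-132 is known to promote dendrite growth and spine formation. In cortex it is known to rise after birth, as sensory input begins.

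The mature sequences are shown because the pair shares the seed, bases 2 to 8, by which a miRNA recognises its targets. The seed is in capitals, and the sequences are those of RefSeq for the rat build GRCr8, 5′ to 3′.
rno-miR-132-3p: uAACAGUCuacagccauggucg
rno-miR-212-3p: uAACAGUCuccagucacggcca
Of the 724 rat mature miRNAs in the table, only these 2 carried this seed, and its reverse complement, the core of a target site, reads GACUGUU. The pair was identical at 17 of 22 positions and over the first 9. The differences, counted from 1 at the 5′ end with the base of miR-132-3p first, were A10C, C14U, U17C, U20C and G22A. The card names its assay miR-132 with no arm, and this older name was taken to mean the 3′ arm. The opposite arms, not analysed here, have separate seeds and differ from each other within them.
rno-miR-132-5p: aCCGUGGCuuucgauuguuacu
rno-miR-212-5p: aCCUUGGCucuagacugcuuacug

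The genes lie side by side on the plus strand of chromosome 10, Mir212 at chr10:60521740-60521850 and Mir132 at chr10:60522033-60522133, with 182 bases between them. The hairpin of Mir132 is shown with the measured 3′ arm in capitals, which occupies chr10:60522091-60522112.
Mir132 hairpin: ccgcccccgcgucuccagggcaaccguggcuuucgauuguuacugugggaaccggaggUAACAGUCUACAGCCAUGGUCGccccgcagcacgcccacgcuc
No other RefSeq gene overlapped the span of the pair (0 found). The nearest gene on the left, Hic1, a transcriptional repressor, lay 3927 bases from Mir212. The non-coding gene LOC120095261 lay 8 bases to the right of Mir132, and the nearest protein-coding gene on that side, Ovca2, lay 2251 bases from it.

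miR-132 was measured well in every sample. Its raw Ct, the PCR cycle at which a well crosses threshold and which falls by 1 when the template doubles, was 24.7, 25.03, 26.7, 25.5 and 24.4 in stellate samples 1 to 5. It was 26.6, 26.3, 28.3, 26.2 and 28.8 in non-stellate samples 1 to 5, and 18.7 and 18.5 in the tissue samples. These values lie far below 40, the value given to undetermined wells, so no Ct or log2 difference of miR-132 rests on a filled-in value. The p-values of the fit across all assays also draw on the spread of other assays, some of which hold such wells. The cards differed as a whole, with 234 to 260 determined miRNA assays in stellate, 203 to 241 in non-stellate and 292 to 302 in tissue samples. U6, the small nuclear RNA used for scaling, was read in 4 wells and averaged Ct 16.5 to 19.0, 17.7 to 20.2 and 15.6 to 15.96 in these groups. Over the 176 assays that were determined in every sample, the median Ct was 28.0 to 29.5, 28.9 to 30.9 and 23.7. Levels are therefore given both scaled to U6, as in the study, and centred on that median.

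The question put to the sorted samples was whether miR-132 differs between stellate cells and their neighbours. It was higher in the stellate sample of all 5 pairs of the same number, but the difference did not pass the test across all assays. U6-scaled Ct, which is lower where the miRNA is more abundant, was 7.87, 6.87, 7.70, 7.58 and 7.92 in stellate samples 1 to 5. In non-stellate samples 1 to 5 it was 8.53, 8.60, 10.3, 7.71 and 8.58. The groups overlapped, since non-stellate 4 lay among the stellate samples, and non-stellate 3 was the lowest in abundance. The means were 7.59 ± 0.422 (SD, n = 5) and 8.75 ± 0.956 (SD, n = 5). The log2 difference was 1.16 ± 0.549 (SE), a 2.24-fold higher level if every cycle doubles the template, with a 95% interval on the log2 scale from -0.037 to 2.36. Its limma adjusted p was 0.587, and the exact two-sided permutation of 5 against 5 for this single assay gave p = 0.0238. The median log2 difference over the 222 tested miRNAs was 0.46, so that part of the value was shared with the card as a whole.

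After median centring the difference was smaller and steadier. The log2 level over the median was 3.48, 3.02, 2.78, 2.80 and 3.55 in stellate samples 1 to 5, and 2.26, 2.65, 2.00, 2.75 and 2.13 in non-stellate samples 1 to 5. The groups did not overlap, although the lowest stellate value, 2.78, stood just above the highest non-stellate value, 2.75. Such a separation upwards was seen for 6 of the 222 tested miRNAs (2.7%), and for 0 of 222 with U6 scaling. The log2 difference was 0.77 ± 0.265 (SE), or 1.70-fold, with a 95% interval on the log2 scale from 0.18 to 1.36. The exact two-sided permutation p was 0.00794, the smallest that 5 against 5 allows, and the limma adjusted p was 0.343. The within-pair log2 differences were 1.22, 0.37, 0.78, 0.05 and 1.42 in pairs 1 to 5, against 0.66, 1.73, 2.62, 0.13 and 0.67 with U6 scaling. All 5 were positive under both scalings, and pair 4 was close to 0 in each. Taken as pairs, the exact two-sided sign-flip test gave p = 0.0625 under both scalings, the smallest that 5 pairs allow, so this test could not pass 0.05. Of the 222 tested miRNAs, 24 (10.8%) were higher in 5 of 5 pairs with U6 scaling and 26 (11.7%) after median centring.

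**Figure D1:**
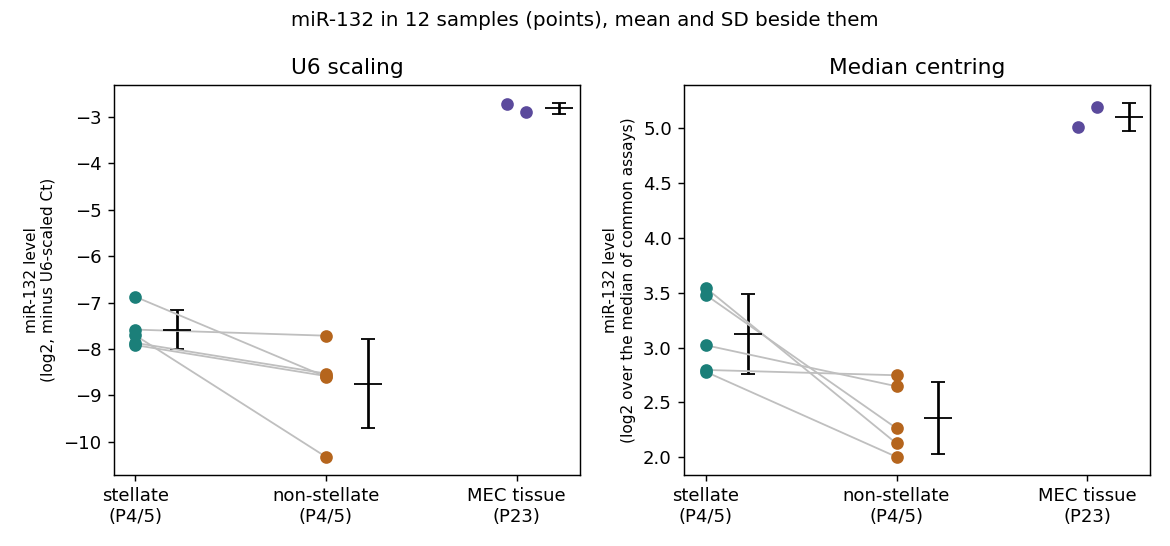
miR-132 level (y axis, log2) in each of the 12 samples, scaled to U6 (left) and centred on the median of 176 assays (right), for stellate cells, non-stellate cells and MEC tissue. Points are samples, grey lines join sorted samples of the same number, and the bars give mean and SD; both tissue samples lie above all sorted samples, and the sorted groups overlap on the left and are just separate on the right.

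In the comparison of the sorted groups 0 of the 222 tested miRNAs (0%) passed an adjusted limma p of 0.05, with 16 (7.21%) at an unadjusted p under 0.05 with U6 scaling and 28 (12.6%) after median centring. miR-132 had an unadjusted limma p of 0.0564 and 0.0162 in these fits. A scaling moves all assays of a sample together, so the position of miR-132 on the card did not change: 44 of the 222 had a larger log2 difference, and 45 (20.3%) one at least as large, miR-132 included. As a measure free of scaling, its place in the order of Ct among the 176 assays was 32, 32, 35, 38 and 31 in stellate samples 1 to 5, with 1 the lowest Ct. It was 38, 38, 49, 32 and 46 in non-stellate samples 1 to 5. The mean places of 33.6 and 40.6 differed by 7 places, beside SDs of 2.88 and 6.84 places (n = 5 each), and the exact permutation did not pass (two-sided p = 0.103). The stellate sample was ahead in 4 of 5 pairs.

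**Figure D2:**
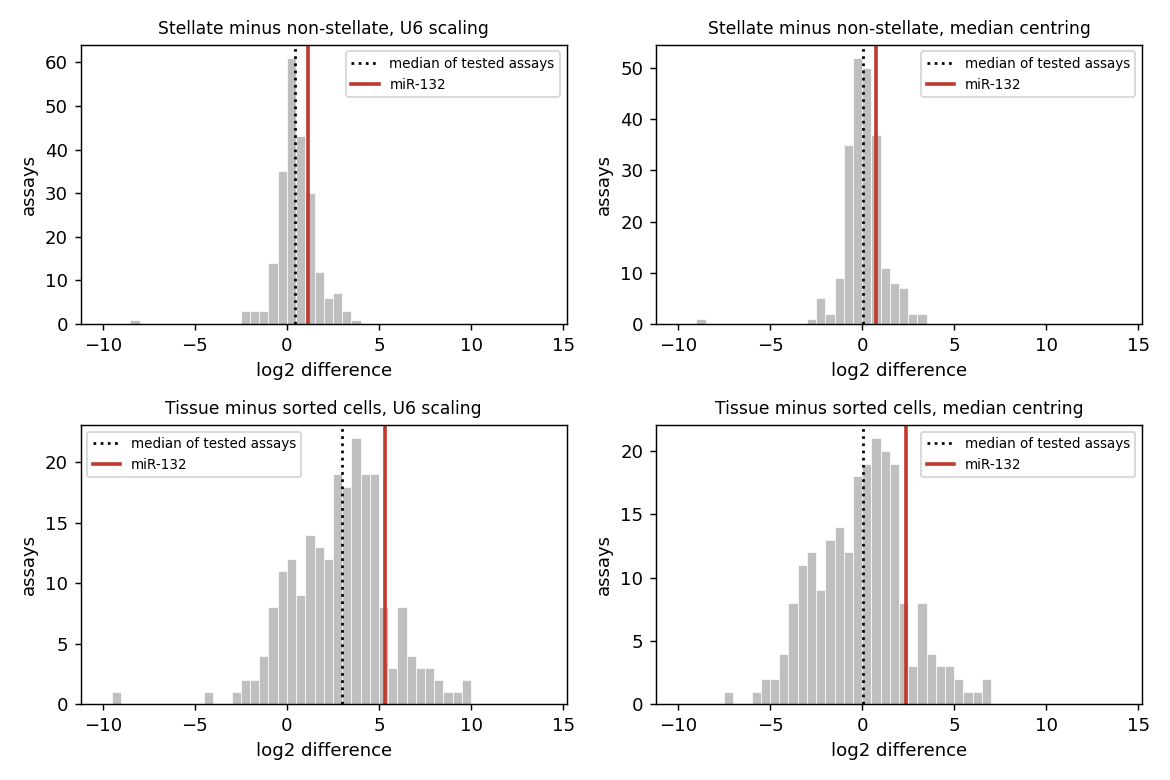
Histograms of the log2 difference (x axis) over the 222 tested miRNAs (y axis, number of assays) for stellate minus non-stellate cells (top) and tissue minus sorted cells (bottom), with U6 scaling (left) and median centring (right). The red line is miR-132 and the dotted line the median of all assays. With undetermined wells entered at 40, miR-132 lies on the right flank of each histogram, with 44 assays beyond it at the top and 29 at the bottom.

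The difference between the sorted groups was smaller without non-stellate 3 and 5. They had the fewest determined assays (216 and 203) and the latest median Ct (30.3 and 30.9) of the sorted samples, and the lowest miR-132 after median centring. With U6 scaling, however, non-stellate 5 (8.58) lay near its group mean (8.75). The U6-scaled log2 difference was 0.80 without pair 3 and 1.29 without pair 5. Without both non-stellate 3 and 5, the log2 difference was 0.69 ± 0.500 (SE) with U6 scaling and 0.57 ± 0.314 (SE) after median centring. The limma adjusted p-values were then 0.991 and 0.701, and the exact two-sided permutation p for 5 against 3 was 0.107 and 0.0357, the latter the smallest that the test as computed allows for 5 against 3. The mean places in the order of Ct then differed by 2.4 (exact two-sided permutation p = 0.464). The part of late amplification in the result was not tested.

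**Figure D3:**
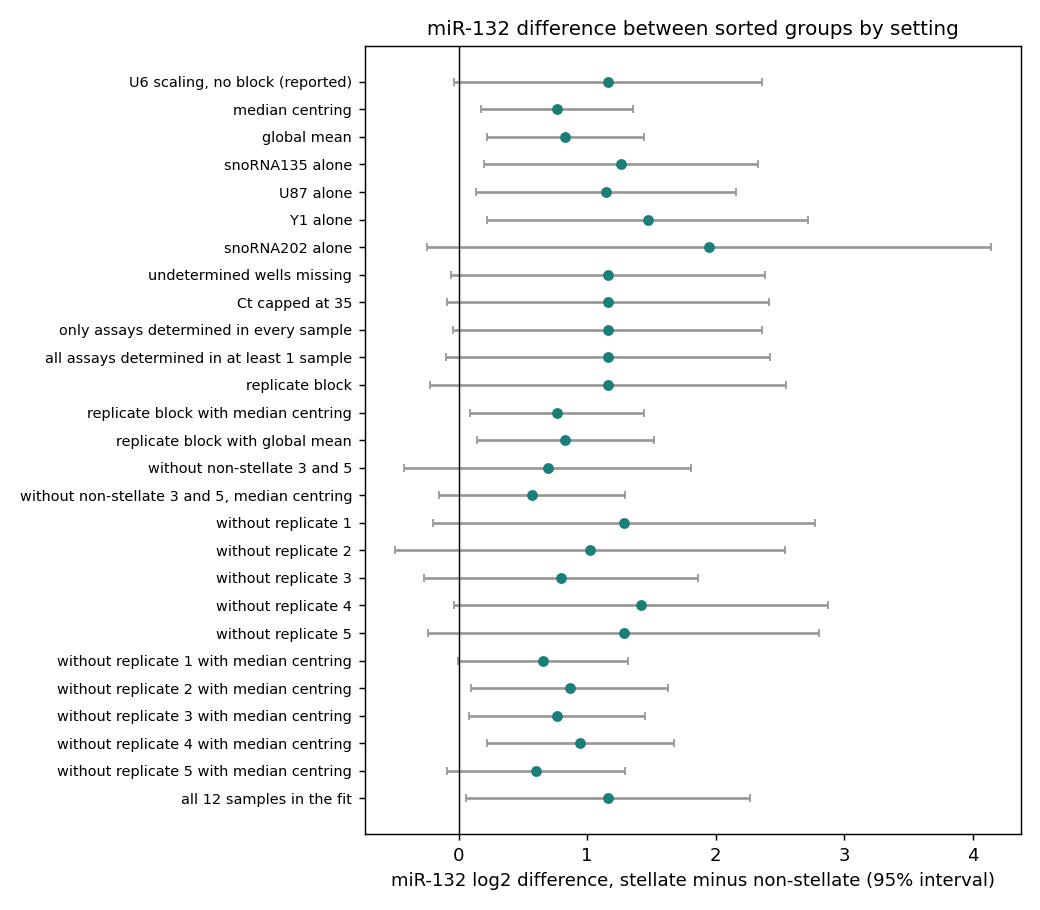
The log2 difference of miR-132, stellate minus non-stellate (x axis), with its 95% interval, for each way of scaling, pairing and choosing samples or assays (y axis). All points lie to the right of 0, from 0.57 to 1.95, and many intervals reach 0.

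The levels of cell type markers were read beside miR-132, since the DiO negative gate takes in any cell without dye. Stellate cells that took up no dye would fall there too. In such samples fewer cells that express a miRNA and less of it per cell cannot be told apart. The mean log2 level over the median of 5 neuronal miRNAs (miR-124, miR-128a, miR-138, miR-129-3p and miR-9) was 3.03 to 3.70 in stellate and 2.37 to 3.12 in non-stellate samples, and 4.23 to 4.46 in tissue. Its group ranges thus took the order of miR-132, with an overlap between the sorted groups. The 5 did not move alike, however: the median-centred log2 difference of stellate minus non-stellate cells was 1.30 for miR-138, 0.99 for miR-128a, 0.57 for miR-124 and 0.27 for miR-129-3p, but -0.80 for miR-9, and 0 of the 5 passed the adjusted limma p. Without non-stellate 3 and 5 the neuronal mean in non-stellate samples was 2.90 to 3.12. The 4 vascular miRNAs (miR-143, miR-145, miR-126-3p and miR-126-5p) averaged -1.34 to 1.19, -2.84 to -0.965 and 1.92 to 2.06, again with an overlap of the sorted groups. Of the 2 oligodendrocyte miRNAs, miR-219 was undetermined in all stellate and miR-338-3p in all non-stellate samples, while both were determined in tissue. Over both assays 7 of 10 wells were undetermined in stellate and 8 of 10 in non-stellate samples, and the remaining wells were determined. With undetermined wells entered at 40 these 2 averaged -11.7 to -9.31, -11.0 to -5.77 and -3.62 to -3.17. Of 4 blood and microglial miRNAs on the card, miR-142-5p and miR-451 were undetermined in all sorted samples and determined in tissue, and with undetermined wells entered at 40 the list averaged -7.83 to -7.12, -6.96 to -5.83 and -3.23 to -3.12. The part of cell composition in the differences of miR-132 was not tested.

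The clearest difference of miR-132 was between tissue and sorted cells. U6-scaled Ct was 2.73 and 2.90 in the tissue samples, against 6.87 to 10.3 in the sorted ones, and the log2 level over the median was 5.02 and 5.20 against 2.00 to 3.55. Both tissue samples lay above all 10 sorted samples on either scale, a separation shared by 151 of the 222 tested miRNAs (68%) with U6 scaling and by 60 (27%) after median centring. In the order of Ct, miR-132 was in place 7 and 6 of 176 in tissue, against 31 to 49 in sorted cells (exact two-sided permutation p = 0.0303, the smallest that the test as computed allows for 2 against 10). The tissue samples differed from each other by 0.192 cycles in raw Ct.

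With U6 scaling the log2 difference of tissue minus the mean of the sorted groups was 5.35 ± 0.623 (SE), or 40.9-fold, with a limma adjusted p of 3.0e-05. The median over the 222 tested miRNAs was 3.02 in the same fit, and 141 of them (63.5%) were called, 138 (62.2%) higher and 3 (1.35%) lower. After median centring the log2 difference of miR-132 was 2.36 ± 0.302 (SE), or 5.15-fold, with a 95% interval on the log2 scale from 1.70 to 3.03 and a limma adjusted p of 9.8e-05. There 109 miRNAs (49.1%) were called, 53 (23.9%) higher and 56 (25.2%) lower. In both fits 29 of the 222 had a larger difference than miR-132, and 30 (13.5%) one at least as large, miR-132 included. The 222 were chosen on the sorted samples alone, and this share depended on that choice. With U6 scaling, 66 of the 328 assays determined in at least 1 sample had a larger difference. Among the 176 determined in every sample, 14 had a larger one. Against stellate cells alone the median-centred log2 difference of miR-132 was 1.98 ± 0.326 (SE, limma adjusted p = 0.000663), and against non-stellate cells alone 2.75 ± 0.326 (SE, limma adjusted p = 6.6e-05). Without non-stellate 3 and 5 the tissue difference was 5.12 ± 0.482 (SE, limma adjusted p = 1.8e-05) with U6 scaling and 2.27 ± 0.310 (SE, limma adjusted p = 0.000381) after median centring. The values against each sorted group share the tissue samples, and their gap is the difference between the sorted groups given above.

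The size of the tissue difference depended on the reference RNA, because the references themselves moved against the miRNAs. Relative to the median of the common assays, U6 stood at -10.7 cycles in stellate, -11.1 in non-stellate and -7.92 in tissue samples. The cytoplasmic RNA Y1 stood at -2.73, -3.44 and -3.60. With Y1 as the only reference, the log2 difference of miR-132 was 1.85 ± 0.667 (SE) and its limma adjusted p was 0.0533, while the median of all tested miRNAs was then -0.49. In the other scalings tried (global mean, snoRNA135, U87 and snoRNA202) it was 2.68 to 6.11 and passed.

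The order of groups was thus tissue, stellate cells and non-stellate cells, from high to low, under both scalings. Tissue stood apart from either sorted group, whereas the neighbouring stellate and non-stellate cells did not differ beyond the test across all assays.

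miR-132 was among the steadier assays within the sorted groups. After median centring its pooled SD within groups was 0.347, and 23 of the 176 common assays had a smaller one, with a median of 0.631. The 4 U6 wells of a sample, which are repeats of 1 assay, had a pooled SD of 0.366 cycles.

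The other brain miRNAs with a known role at synapses or in plasticity were read as a list of 22 names, of which 18 were on the card and 17 were tested. All 5 neuronal markers above belong to it too. Between stellate and non-stellate cells 0 of the 17 passed under U6 scaling or median centring. Their median log2 difference was 0.47 and 0.08, beside 0.46 and 0.07 for all tested miRNAs, and 5 of the 17 (miR-138, miR-134, miR-128a, miR-184 and miR-218) had a larger difference than miR-132. Among them, miR-138, which limits spine size, had a U6-scaled log2 difference of 1.70 ± 0.794 (SE, limma adjusted p = 0.587). miR-134, which restrains spine growth through the kinase Limk1, had one of 1.23 ± 0.610 (SE, limma adjusted p = 0.587).

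In tissue the calls of this list depended on the scaling, as did those of the whole card. With U6 scaling 13 of the 17 were called higher and 0 lower, where 138 of all 222 tested miRNAs (62.2%) were called higher and 3 (1.35%) lower, with a median log2 difference of 3.80 beside 3.02 for all tested miRNAs. After median centring 6 were called higher, 2 lower and 9 neither, where 53 of the 222 (23.9%) were called higher and 56 (25.2%) lower, with a median of 0.81 beside 0.03. Without non-stellate 3 and 5 the list had 13 higher and 0 lower with U6 scaling, where 142 of the 222 were called higher and 3 lower. After median centring it had 7 higher and 2 lower, where 56 of the 222 were called higher and 60 lower. In the comparison of the sorted groups 0 of the list and 0 of all tested miRNAs then passed. miR-137, a regulator of neuronal maturation, was higher in tissue by 4.23 ± 0.543 (SE, limma adjusted p = 9.8e-05) after median centring. miR-335-5p, which lies within the imprinted gene Mest, was higher by 3.33 ± 0.304 (SE, limma adjusted p = 1.1e-05), and miR-218 by 3.05 ± 0.548 (SE, limma adjusted p = 0.000864). These 3 had larger differences than miR-132, under U6 scaling too. The other miRNAs called higher were miR-129-3p, miR-26a and miR-124, an abundant neuronal miRNA, with log2 differences of 1.82, 1.81 and 1.27. miR-134 was called lower after median centring, at -1.97 ± 0.573 (SE, limma adjusted p = 0.0154), but was above 0 with U6 scaling, at 1.02 ± 0.701 (SE, limma adjusted p = 0.219). miR-188-5p, which targets the semaphorin receptor Nrp2, was called lower after median centring, at -4.02 ± 0.620 (SE, limma adjusted p = 0.000331), and stood at -1.03 ± 0.755 (SE, limma adjusted p = 0.255) with U6 scaling, not past the test.

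**Figure D4:**
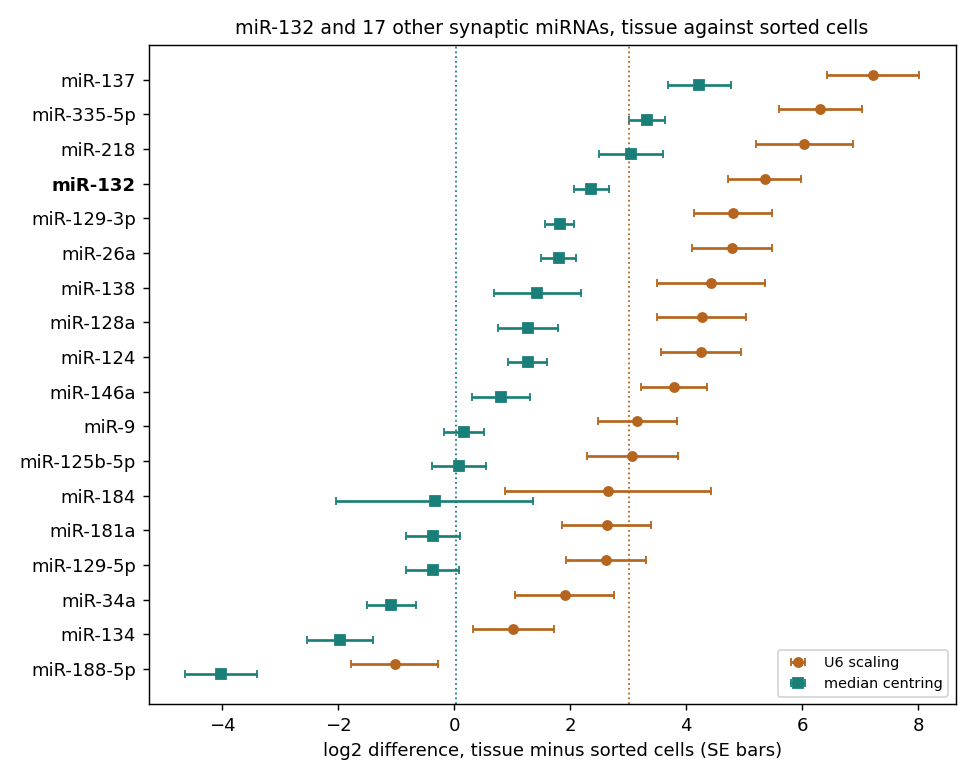
The log2 difference of tissue minus sorted cells (x axis, bars give SE) for miR-132 and 17 other miRNAs with synaptic roles (y axis), with U6 scaling (circles) and median centring (squares). Dotted lines are the medians of the 222 tested miRNAs, 3.02 and 0.03; miR-132 is exceeded by miR-137, miR-335-5p and miR-218 under both scalings.

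The assays whose pattern was most like that of miR-132 were sought across the 10 sorted samples among the other 175 determined in all of them. After median centring the highest Pearson correlations were those of miR-222 (0.906), miR-409-3p (0.839), miR-139-5p (0.829), miR-382 (0.823) and miR-218 (0.813), against a median of -0.025 over the 175. With the difference between the groups removed they were 0.741, 0.6998, 0.575, 0.744 and 0.756. Non-stellate 3 and 5 lay below the mean of the 10 sorted samples in all 5 assays, and the ordering changed without them. For miR-222 and miR-139-5p, however, non-stellate 5 (2.58 and 2.63) stood above non-stellate 1 (2.47 for both) in median-centred log2 level. Over the remaining 8 sorted samples miR-222 was still first (0.872) and miR-139-5p the fourth (0.784), but miR-409-3p (0.665), miR-382 (0.654) and miR-218 (0.616) fell to places 13, 14 and 18, against a median of 0.056 over the 175. With global mean scaling and all 10 samples the same 5 assays led. With U6 scaling miR-222 was again first (0.966), but the median over all assays was 0.618, as all assays then share the U6 term. miR-409-3p and miR-382 are products of one imprinted cluster, and miR-222 is made together with miR-221 from another transcript. The points share samples and cards, and the correlations are given as a description with no test.

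**Figure D5:**
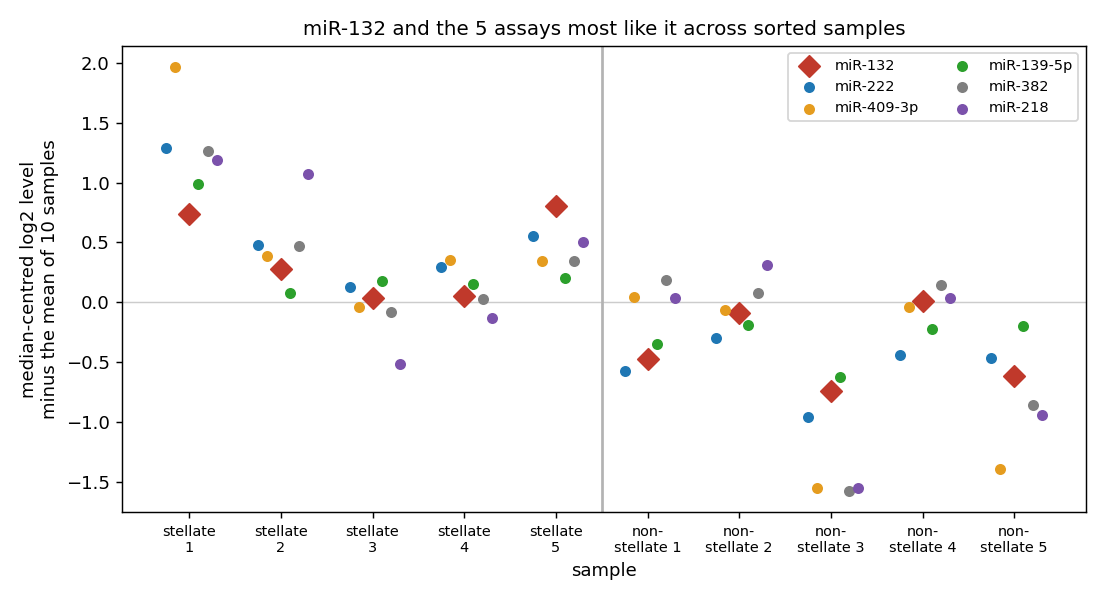
Median-centred log2 level minus its mean over the 10 sorted samples (y axis) in each sorted sample (x axis), for miR-132 (diamonds) and the 5 assays most like it (circles). In stellate 1 all 6 lie above 0 and in non-stellate 3 and 5 all 6 lie below it.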

How the data were processed

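Total RNA was reverse transcribed with Megaplex primers, pre-amplified and run on TaqMan Rodent MicroRNA A cards, with Ct called by the ViiA7 software. The raw Ct deposited by the authors is on a log2 scale, with 40 in undetermined wells. The normalized values deposited by the authors, also log2, are Ct minus the mean of the 4 U6 wells. Their tables of ratios, fold changes and p-values hold the authors' own comparisons and were not used. No molecule counts exist for such cards, so determined assays and reference Ct stand in for depth, and wells were single apart from U6.

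Groups followed the titles. Tested were the 222 of 375 miRNA assays with no more than 3 undetermined wells among the 10 sorted samples. Log2 differences are minus the difference in scaled Ct. The test was the moderated fit of limma (version 3.58.1, R version 4.3.3), two-sided, with Benjamini-Hochberg adjustment over the 222 and a threshold of 0.05, without a block, on the 10 sorted samples or, for tissue, on all 12. miR-132 alone was also tested by exact permutation over samples (SciPy 1.17.1), its two-sided p doubling the smaller tail. The limma fits were tested on simulated data with independent noise and no card-wide shifts, pairs or undetermined wells. The changes set there were larger than the sorted differences of miR-132, so the simulation does not speak to differences of that size. For median centring and global mean scaling, the 176 assays with a Ct in every sample were used. P-values set a difference against the spread between these samples, which limma moderates across assays. For tissue that spread is pooled with the spread of the sorted groups. Samples of the same number were read as pairs, because the design names labelled and unlabelled cells of 5 biological replicates. Deviations from the group means correlated within pairs 1 to 5 at 0.331, 0.119, 0.256, 0.155 and 0.0743. Samples of different number were not correlated, so these values cannot show whether samples of the same number were more alike.

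miR-132, miR-212, the synaptic list, the marker lists and the alternatives were chosen with earlier results of these data known. Named were these lists and the 5 assays most like miR-132. Planned ratios of miR-132 to miR-212 were not run. Sequences and positions are from RefSeq, GRCr8.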

Additional observations from a re-analysis of the deposited data

How the results depend on the processing

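Over 26 alternatives the stellate difference of miR-132 stayed above 0 and short of the threshold, from 0.57 to 1.95 (limma adjusted p from 0.181 to 0.991). With the replicate block it was 1.16 ± 0.622 (SE, limma adjusted p = 0.495), and with the block and median centring 0.77 (limma adjusted p = 0.209). Without 1 replicate each it ran from 0.80, without replicate 3, to 1.42, and after median centring from 0.60 to 0.95. The count of miRNAs called in that comparison stayed 0 under 25 alternatives, with 5 to 48 at an unadjusted limma p under 0.05, and reached 1 when global mean scaling and the replicate block were combined, where miR-132 did not pass. The cause was not tested. The block changed no call of miR-132. Over 41 alternatives the tissue difference kept its direction, from 1.85 to 6.11, and passed under 40; with Y1 alone it was 1.85, short of the threshold. Without 1 sample each it ran from 5.16 to 5.48, and from 2.27 to 2.45 after median centring. The count of 141 miRNAs called in tissue became 68 with Y1 alone (17 higher, 51 lower), 112 with global mean scaling (63 higher, 49 lower) and 91 against stellate cells alone with median centring. It ran from 97 to 146 without 1 sample each and from 62 to 116 when also median centred, with 62 without tissue 1 and 72 without tissue 2, where 1 tissue sample is assumed to vary like the other groups. Combined settings with median centring or global mean and a block, a left-out sample or a single sorted group, and the tissue, list and correlation values without non-stellate 3 and 5, were chosen after seeing the data, apart from the block with median centring. Alternatives for miR-212, its ratio to miR-132 and their covariation were not run, as miR-212 was not analysed here. With 2 tissue samples, the exact two-sided permutation as computed here cannot go below 0.0303.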

Other observations

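At the opposite end of the same ordering, chosen after their values were seen, were miR-467b, miR-322 and miR-129-5p. Their Pearson correlations with miR-132 across the 10 sorted samples were -0.761, -0.748 and -0.744 after median centring. With the group difference removed they were -0.767, -0.313 and -0.816. Without non-stellate 3 and 5 the correlations over 8 samples were -0.650, -0.609 and -0.505, at places 173, 171 and 167 of 175. miR-129-5p and miR-129-3p, opposite arms of one hairpin family with roles in neuronal excitability, also differed in tissue, where the median-centred log2 difference was -0.37 ± 0.456 (SE, limma adjusted p = 0.518) for the first and 1.82 ± 0.255 (SE, limma adjusted p = 0.000180) for the second, and this contrast between the arms was not tested.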
